A study of Mus musculus with 2 samples.

Results

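The miR-15/16 family, which includes miR-195 and miR-497, is a set of microRNA genes whose main products begin with nearly the same bases. Its 6 listed genes, Mir15a, Mir15b, Mir16-1, Mir16-2, Mir195a and Mir497b, were taken by name through their Ensembl identifiers, and all 6 were found among the 1973 genes counted. The samples were intestines of B6NCrl mouse embryos at 14.5 days of development, with no treatment, mutation or second condition named. There were 2 libraries, labelled biological replicates 1 and 2, and they form a single group. Each is labelled as a single pup's intestine and also as pooled male and female, which the values cannot settle. Replicate 1 was collected on day 17 and replicate 2 on day 15 of the month, and library and collection day cannot be told apart.

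MicroRNAs pair with messenger RNAs mainly through their bases 2 to 8, the seed, and lower the output of those messengers. Genes of this family are known to repress cyclins and cyclin-dependent kinases of the G1 phase and the survival factor Bcl2, and loss of the human MIR15A and MIR16-1 locus is a recurrent event in chronic lymphocytic leukaemia. In mouse heart, miR-195 is known for its part in the arrest of cardiomyocyte division after birth. In rat jejunum, miR-16 has been linked to the daily rhythm of crypt cell division.

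The mature sequences show what the family shares and where its members differ. They are printed from RefSeq (GRCm38.p6), 5′ to 3′, with the seed in capitals:
miR-15a-5p: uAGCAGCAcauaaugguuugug
miR-15b-5p: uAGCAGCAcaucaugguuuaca
miR-16-5p: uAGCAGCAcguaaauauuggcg
miR-195a-5p: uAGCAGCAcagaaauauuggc
miR-497a-5p: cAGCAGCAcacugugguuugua
miR-497b: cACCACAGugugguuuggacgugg
miR-322-5p: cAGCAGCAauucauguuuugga
The first 5 of these run identically from base 2 to base 9. miR-322-5p, made from an X-linked gene that is not a member, shares the run to base 8. miR-497b, the annotated product of the listed gene Mir497b, has another seed. Over their whole length, miR-15a-5p and miR-15b-5p differ at 4 of 22 positions, and miR-16-5p and miR-195a-5p at 2 of 21, whereas miR-16-5p and miR-497a-5p differ at 11 of 22.

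The family took a small share of the microRNA counts that were assigned to genes in the embryonic intestine. By these assigned counts Mir15a and Mir16-1 from chromosome 14 came first. Its 6 genes held 0.728% of all gene counts in replicate 1 (95% Wilson interval 0.723 to 0.732%) and 0.780% in replicate 2 (0.771 to 0.789%), a mean of 0.754 ± 0.0372% (SD, n = 2). Counts are of reads on the gene's strand unless said otherwise, and levels are such counts per 1000000 (CPM). The intervals cover counting error only, since no molecular identifiers are recorded. In a whole tissue, fewer cells that make a microRNA and less of it per cell cannot be told apart. Genes with 10 counts or more in each library are called detected, and 5 of the 6 members were. Mir497b was not on its own strand. In both libraries the order of assigned counts was Mir15a, Mir16-1, Mir15b, Mir16-2, Mir195a. Reads of the mature microRNA that Mir16-1 and Mir16-2 share are assigned to neither gene, so the places of these genes in that order, and the first place of Mir15a, are not fixed by these counts. The family's share may be too low for the same reason, by an amount that is unknown.

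Sequencing depth differed between the libraries and limited low values most. Replicate 1 held 15090126 gene counts and replicate 2 held 3903472, a 3.87-fold gap, so a gene without counts may still lie at up to 0.199 CPM in the deeper library and 0.769 CPM in the shallower. In all, 363 genes were detected. The tissue label was checked against marker lists. Smooth muscle genes (Mir143, Mir145a) held 17.2 and 15.0% of the counts in replicates 1 and 2. Intestinal epithelial genes (Mir192, Mir194-1, Mir194-2, Mir215) held 0.898 and 1.14%, and the liver gene Mir122 0.00398 and 0.00510%. Marker sums leave out reads with several alignments, so they are shares of assigned counts and may be too low.

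**Figure D1:**
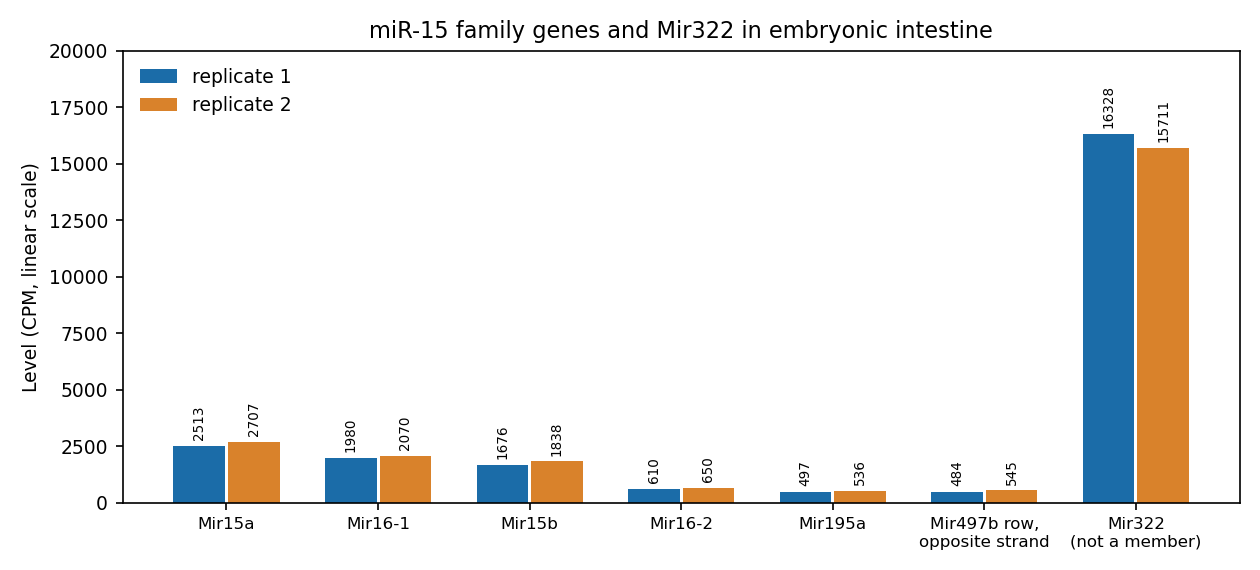
Level in CPM, on a linear axis from 0, of each family gene and of Mir322 in replicate 1 (blue) and replicate 2 (orange). The bars of Mir497b show its opposite-strand counts, and all other bars show counts on the gene's strand. Numbers above the bars are the levels by assigned counts, which show Mir15a, Mir16-1 and Mir15b above the other members in both libraries. Mir322 stands above them all. Reads that match Mir16-1 and Mir16-2 equally are in no bar, so this order is not fixed.

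Mir15a, one of the best known brakes on Bcl2 and cyclin D1, had the most assigned counts of the members. Mir15a (ENSMUSG00000093007.1, GRCm38 chromosome 14, 61632027 to 61632110, minus strand) had 37923 counts in replicate 1 and 10567 in replicate 2. These were 2513 CPM (interval 2488 to 2538) and 2707 CPM (2656 to 2759), a mean of 2610 ± 137 CPM. By assigned counts Mir15a ranked 64th. Of the 363 detected genes, 17.4% had a higher mean. The genes closest to it in level over the 2 libraries, by distance on the log2(CPM + 1) scale, were Mir183 (2501 and 2615 CPM), Mir455 (2654 and 2792 CPM) and Mir381 (2676 and 2853 CPM). Reads with several alignments are assigned to no gene, so other genes may stand too low. The rank of Mir15a and its closest genes therefore hold for assigned counts only.

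Mir16-1 lies beside it and came second by assigned counts. It lies downstream (ENSMUSG00000092995.1, chromosome 14, 61631880 to 61631972, minus strand), with 54 bases between the hairpins. Replicate 1 gave 29873 counts, or 1980 CPM, and replicate 2 gave 8081 counts, or 2070 CPM. Both genes lie within Dleu2, a long non-coding RNA gene on the same strand (61602839 to 61682373). Mir15a falls in an intron of Dleu2, and Mir16-1 overlaps an annotated Dleu2 exon. By assigned counts Mir15a stood 1.29-fold above Mir16-1 (log2 0.34 in replicate 1, 0.39 in replicate 2).

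Mir15b and Mir16-2, the paralogous pair, were lower by assigned counts, Mir16-2 more so than Mir15b. They lie on the plus strand of chromosome 3 in an intron of Smc4, which encodes a condensin subunit that compacts mitotic chromosomes (69004738 to 69034623), with 66 bases between them. Mir15b (ENSMUSG00000065580.1; 69009772 to 69009835 in version 2 of the gene, which may not be the counted interval) measured 1676 and 1838 CPM in replicates 1 and 2. Mir16-2 (ENSMUSG00000065606.1, 69009902 to 69009996) measured 610 and 650 CPM. By assigned counts Mir15b stood 2.79-fold above Mir16-2 (log2 1.46 in replicate 1, 1.499 in replicate 2).

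The chromosome 14 locus therefore carried more assigned counts than the chromosome 3 locus in each library. Mir15a and Mir16-1 together held 0.449 and 0.478% of all counts in replicates 1 and 2, and Mir15b and Mir16-2 together held 0.229 and 0.249%. The ratio was 1.94-fold, with log2 values of 0.98 (95% counting interval 0.96 to 0.99) and 0.94 (0.91 to 0.98) in the libraries, a gap of 0.03. Between the miR-15 genes alone, whose products differ in sequence, Mir15a exceeded Mir15b 1.49-fold (log2 0.58 and 0.56). Between the miR-16 genes, Mir16-1 exceeded Mir16-2 3.22-fold (log2 1.70 and 1.67). Each of these ratios was many times its change between the libraries. No test was run, because 2 libraries of a single group are too few for an exact test at 0.05.

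The levels of the miR-16 genes are uncertain because both make the same mature microRNA. Their RefSeq hairpins are printed here, with the longest stretch they share in capitals, to show which part of a read can tell them apart:
Mir16-1: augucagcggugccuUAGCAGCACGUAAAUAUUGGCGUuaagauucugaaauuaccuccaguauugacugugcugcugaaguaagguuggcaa
Mir16-2: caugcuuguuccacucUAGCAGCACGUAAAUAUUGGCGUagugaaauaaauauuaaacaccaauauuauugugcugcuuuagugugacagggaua
The shared stretch is 23 bases and holds the whole 22-base miR-16-5p. A read of miR-16-5p itself matches both places equally, and the tables assign reads with several alignments to no gene. Reads that extend past the shared stretch, or that come from the 3′ arm, differ between the loci, as the 3′ arms show (seeds in capitals):
miR-16-1-3p: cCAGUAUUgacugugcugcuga
miR-16-2-3p: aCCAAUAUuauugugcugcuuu
The 3′ arms differ at 10 of 22 positions. How many of the 39071 counts of both genes in replicate 1, or of the 10619 in replicate 2, came from each kind of read was not measured. Reads with several alignments numbered 6977350 in replicate 1 and 1864809 in replicate 2, and the part of them that is miR-16-5p is unknown. The miR-16 levels and the family sum may therefore be too low, and the 3.22-fold and 1.94-fold ratios may be displaced in either direction. The 1.29-fold ratio of Mir15a to Mir16-1 and the 2.79-fold ratio of Mir15b to Mir16-2 may be too high. Their direction is not fixed by these counts. Among the RefSeq hairpins of Mir15b, Mir16-1, Mir16-2, Mir195a and Mir497b, no other stretch of 20 or more bases was shared with a microRNA hairpin elsewhere in the genome. The Mir15a hairpin was not compared, because the RefSeq sequences used held no hairpin entry for it.

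Mir195a and the microRNA opposite Mir497b stood at similar levels on chromosome 11. Mir195a (ENSMUSG00000065411.2, 70235042 to 70235135, plus strand, within no other annotated gene) had 7496 counts in replicate 1 and 2092 in replicate 2, or 497 and 536 CPM. Mir15a was 5.06-fold higher, with a log2 ratio of 2.34 in each library. Mir497b (ENSMUSG00000070109.2, 70234692 to 70234816, minus strand) had 1 count on its own strand in replicate 1 and 0 in replicate 2, which allows up to 0.769 CPM there.

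On the opposite strand the Mir497b gene had 7303 counts in replicate 1 and 2128 in replicate 2, equal to 484 and 545 CPM. The opposite strand thus held 99.99% of its reads in replicate 1 (Wilson interval 99.92 to 99.998%) and 100% in replicate 2 (99.82 to 100%). GENCODE M21 annotates Mir497 on that strand (70234717 to 70234800), and all 84 bases of its hairpin lie inside the Mir497b interval. The Mir497 hairpin is shown because it is the hairpin annotated where these reads fall, with miR-497a-5p in capitals:
Mir497: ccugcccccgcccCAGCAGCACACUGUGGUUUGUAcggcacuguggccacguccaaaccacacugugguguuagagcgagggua
The tables count this place under Mir497b, so the arm of the hairpin that gave the reads cannot be read from them. For the other 5 members the opposite strand held 1 count in replicate 1, at Mir195a, and 0 in replicate 2. Over the whole tables, 15 genes had at least 10 opposite-strand counts in both libraries. In 10 of them these exceeded the counts on the gene's strand in both, and Mir497b ranked 9th among those 10 by opposite-strand level.

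Mir195a, which is known from heart and skeletal muscle, lies 241 bases from Mir497 on the same strand. The ratio of Mir195a to the opposite-strand counts of Mir497b was 1.00 (log2 0.04, interval -0.01 to 0.08, in replicate 1 and -0.02, interval -0.11 to 0.06, in replicate 2). The intervals include no difference in either library, and the sign differs between them. With the opposite-strand counts, Mir195a and Mir497b held 0.0981 and 0.108% of the gene-strand total in replicates 1 and 2, and the whole family 0.776 and 0.835%. Within that sum Mir15a made up 32.4 ± 0.0325%, Mir16-1 25.2 ± 0.502%, Mir15b 21.8 ± 0.294%, Mir16-2 7.82 ± 0.0463%, Mir195a 6.41 ± 0.0136% and the opposite strand of Mir497b 6.38 ± 0.208% (SD, n = 2).

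**Figure D2:**
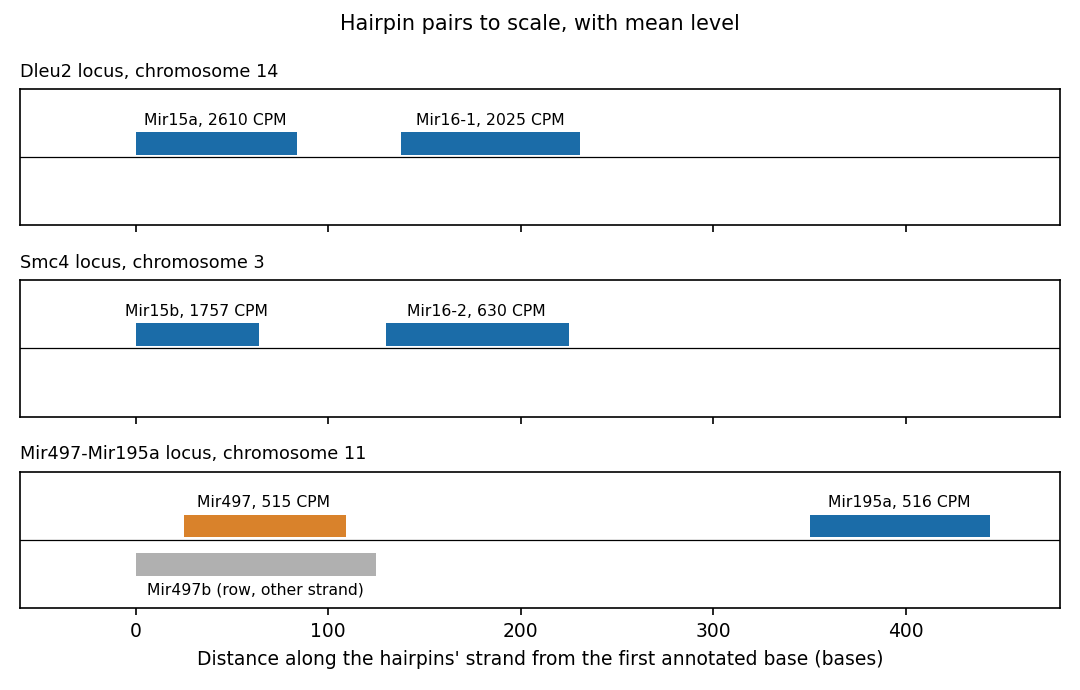
Hairpins of the family drawn to scale by distance in bases along their strand, with the mean level of the 2 libraries. In the lowest panel the Mir497b interval (grey) lies on the other strand, and the 515 CPM beside Mir497 are the opposite-strand counts of Mir497b, against 516 CPM for Mir195a.

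Mir322, outside the listed genes, has a product with the family's seed and had more counts than the 6 members together. The tables count genes and not arms. The 3′ products of Mir322 and of the detected members lack the seed, so the shares given here are of counts of genes with a seed product and not of reads that carry the seed. Mir322 is the mouse counterpart of human miR-424 and is made with Mir503 from an X-linked cluster. Of 11 genes with this seed in the RefSeq table, 10 are counted under their own names in the tables, 6 with reads and 4 without. Mir322 measured 16328 and 15711 CPM in replicates 1 and 2 and exceeded the 6 members together 2.13-fold (log2 1.17 and 1.01). Of the own-strand counts of the genes with a seed product, Mir322 held 69.2 and 66.8% and the members 30.8 and 33.2%. With the opposite-strand counts of Mir497b, where Mir497 is annotated, the members held 32.2 and 34.7%, and Mir322 exceeded them 1.99-fold. The unassigned reads of miR-16-5p, which has the seed, are in none of these values and could raise the members' part. On their own strand these genes gave 2.36 and 2.35% of all counts. Mir503 (779 and 831 CPM), whose seed differs, stood between Mir15b and Mir16-2 by assigned counts.

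Mir195b, Mir6342, Mir6353 and Mir6419, which carry the same seed at other loci, had no count in either library. Their sequences are printed for comparison with the family:
miR-195b: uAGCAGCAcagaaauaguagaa
miR-6342: cAGCAGCAaucuggucuuugag
miR-6353: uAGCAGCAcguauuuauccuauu
miR-6419: cAGCAGCAaucugacacaugga
A count of 0 allows up to 0.199 CPM for each of them in replicate 1. For scale beside the family's share, the miR-17-92 cluster of Mir17hg, which promotes proliferation, held 5.14 and 5.13% of the counts in replicates 1 and 2. The 10 counted genes of let-7 with Mir98, associated with differentiation, held 7.26 and 7.90%. These sums also leave out reads with several alignments, so they are shares of assigned counts and may be too low for the whole families.

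Between the 2 libraries the detected members were all slightly higher in replicate 2 when scaled to the gene total, a direction that Mir16-1 loses under TMM scaling. Differences are log2 of replicate 2 over replicate 1, each with its exact 95% counting interval. They were 0.11 for Mir15a (0.08 to 0.14), 0.13 for Mir15b (0.09 to 0.17), 0.06 for Mir16-1 (0.03 to 0.10), 0.09 for Mir16-2 (0.03 to 0.16) and 0.11 for Mir195a (0.04 to 0.18). The opposite strand of Mir497b gave 0.17 (0.10 to 0.24). These correspond to folds of 1.05 to 1.13. The median of the 5 detected members was 0.11, against 0.06 over all 363 detected genes, of which 62.0% were higher in replicate 2. The summed marker lists, other than endothelium (1.03-fold), moved by more than the members did between the same libraries. Replicate 2 over replicate 1 was 1.27-fold for intestinal epithelium, 1.58-fold for erythroid genes and 0.872-fold for smooth muscle, and 1.28-fold for liver and 1.25-fold for leukocyte genes. Among single genes picked after their values were seen, Mir375 differed by 1.20 and Mir802 by 6.42 on the log2 scale. The part of these shifts in the members' differences was not tested.

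All 5 detected members were higher in replicate 2 and passed a two-sided exact binomial test of their reads against the ratio of the library totals, adjusted over the 363 genes at 0.05. Of all tested genes 43.8% passed it, and 29.8% passed while higher in replicate 2. These shares include genes with few counts, which pass less readily. Among genes with at least 50 counts in both libraries 56.3% passed, and the 5 detected members had at least 2092 counts in each. The share among genes of the members' depth was not computed. The test compares these 2 libraries only and detects small differences at this depth. The largest adjusted p of a member was 0.0113 by the exact test, for Mir16-2. With TMM library sizes from edgeR, 2 members passed, Mir15a (log2 0.04) and Mir15b (0.07), and Mir16-1 turned to -0.003. With DESeq2 size factors the same 2 passed. The median of all 363 genes was 0.06 with the gene total, -0.0098 with TMM sizes and 0 with DESeq2 size factors.

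**Figure D3:**
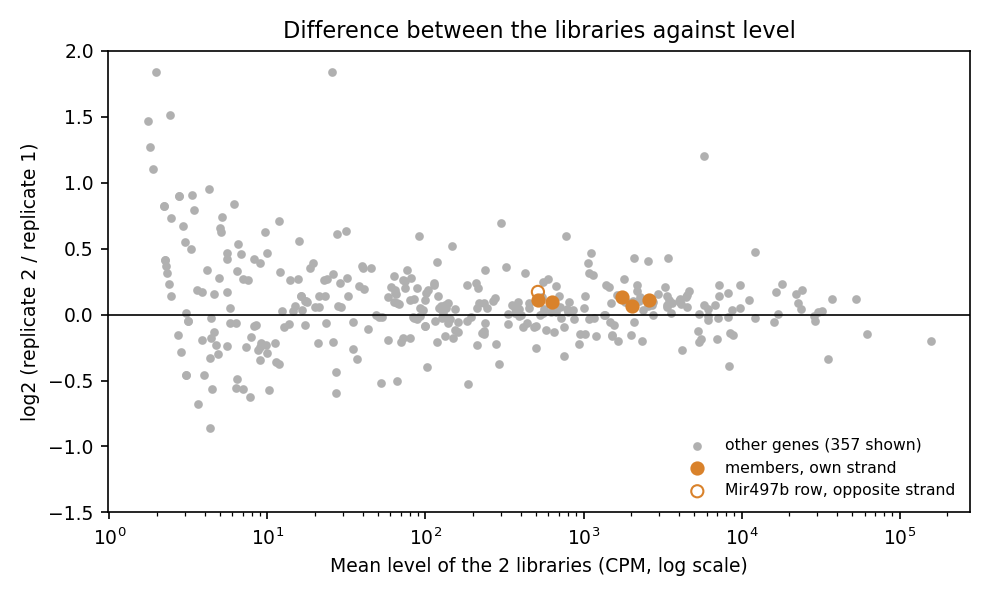
Difference between the libraries (log2 of replicate 2 over replicate 1) against mean level (CPM, log axis) for genes with at least 10 counts in both. Members on their own strand (filled orange) and the opposite strand of Mir497b (open) lie between 0.06 and 0.17; Mir802, outside the plotted range, is not drawn.

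The miR-15 and miR-16 genes at 1 locus kept nearly the same ratio in both libraries. On chromosome 11 the log2 ratio of Mir195a to the opposite-strand counts of Mir497b changed by 0.06. That pair is not among those compared below. Neighbouring hairpins are usually cut from a single primary transcript, yet their mature levels often differ. For Mir15a over Mir16-1 the log2 ratio changed by 0.04 between the libraries, and for Mir15b over Mir16-2 also by 0.04. Among 66 pairs of adjacent detected genes on one strand less than 1000 bases apart, the median change was 0.16 (quartiles 0.09 and 0.28), and 10.6 and 7.58% of the pairs changed less than these family pairs. The level ratio in the 66 pairs had a median of 2.996 on the log2 scale, or 7.98-fold (quartiles 1.46 and 4.75). By assigned counts, Mir15a and Mir16-1, at 0.37, were closer in level than most, with 6.06% of pairs closer still. Mir15b and Mir16-2, at 1.48, lay near the lower quartile. More abundant genes have smaller counting error, pairs share genes, and the miR-16 genes are uncertain as above. In the other pairs, too, reads with several alignments are assigned to no gene, so their ratios and the median may be displaced. How many pairs this affects was not examined. All these values are therefore descriptions of assigned counts in the 2 libraries.

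**Figure D4:**
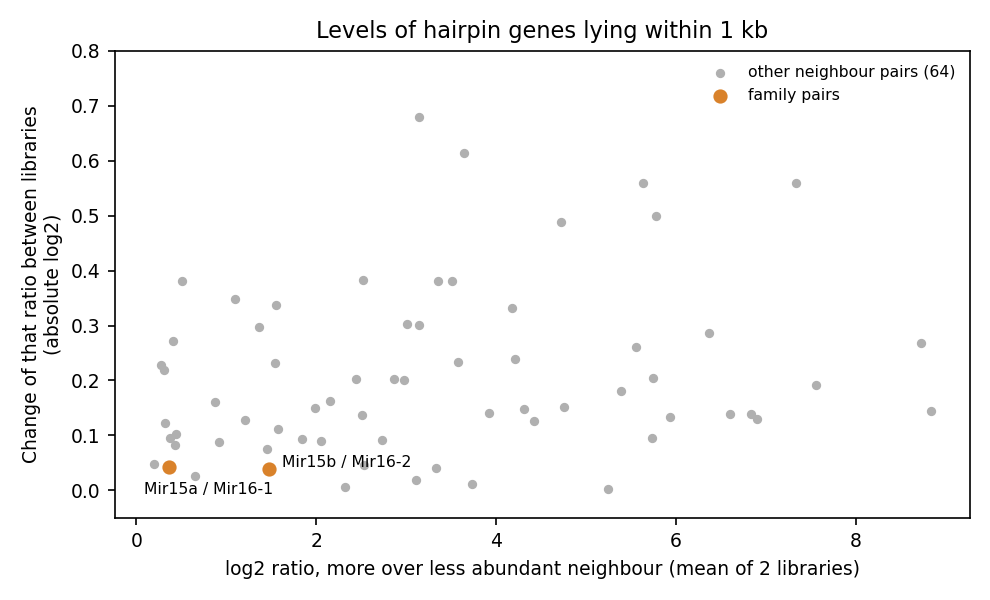
Each point is a pair of adjacent microRNA genes within 1 kb, placed by the log2 level ratio of its more to its less abundant gene (x axis) and by the absolute log2 change of that ratio between the libraries (y axis). The family pairs (orange) sit at ratios of 0.37 and 1.48 and at changes of 0.04.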

How the data were processed

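Small RNA with inserts under 30 bases was sequenced in 2 libraries of intestine, per the labels. The deposited files hold whole-number read counts per gene in 3 columns, read from their values as the sum of both strands, the strand of the gene and the reverse. Per the file headers of the accompanying text, the authors counted against mm10 and GENCODE M4. Their aligner and counting program are not given in the sources used here. Rows for several alignments (26.5 and 26.6% of the table's reads in replicates 1 and 2), for unaligned reads (12.4 and 13.8%) and for reads on no gene (2.20 and 2.10%) stayed out of totals. PCR copies and ligation preferences affect counts, so levels of different microRNAs are counts, not molecules. Mature microRNAs have similar lengths, so CPM was not divided by length.

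Symbols and positions came from GENCODE M21 (1894 of 1973 identifiers matched). CPM, Wilson intervals, exact intervals of count ratios and the exact binomial test with Benjamini-Hochberg adjustment were computed in Python 3.11.15 with scipy 1.17.1. TMM sizes (edgeR 4.0.16) and DESeq2 1.42.0 size factors served as alternatives. The labels do not settle whether a library comes from 1 pup or a pool, and collection day differs with replicate, so the sources of the spread between libraries, which may be technical, cannot be told apart. The rule for named genes was the 6 members, genes sharing their seed, Mir503, the 3 genes closest to the leading member, marker genes and summed reference families. Members, lists and comparisons were chosen with earlier results of these data known. Marker lists not described in the results were endothelium (Mir126a, 2.35 and 2.42% of counts), erythroid (Mir451a, Mir144 and Mir486, 0.0258 and 0.0409%) and leukocyte (Mir223, the counted gene of 2 listed, 0.0379 and 0.0472%).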

Additional observations from a re-analysis of the deposited data

Results flagged for a closer look

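Mir497b was flagged because its signal lay almost entirely in counts outside the main measurement, those on the opposite strand. These averaged 515 ± 43.3 CPM (SD, n = 2), with 484 CPM in replicate 1 and 545 CPM in replicate 2, against 1 and 0 counts on its own strand. A count of 0 would allow 0.199 CPM in replicate 1 and 0.769 CPM in replicate 2. The opposite-strand level differs from that of the neighbouring Mir195a (516 ± 27.7 CPM) by less than the spread of the libraries.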

How the results depend on the processing

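The family's share of 0.754% was 0.781% with both strands counted, 0.426% of all reads in the tables, 0.894% of the gene total without Mir143 and 0.488% without Mir16-1 and Mir16-2. The last 3 values follow from a larger denominator, a smaller one and fewer genes. Without the miR-16 genes the log2 ratio of the chromosome 3 to the chromosome 14 locus was -0.57, against -0.96, and the family's part of the counts of genes with a seed product was 23.4%, against 32.0%. The log2 ratio of Mir195a to Mir497b, 13.2 on their own strands over both libraries summed (counting interval 10.7 to 18.5, from 1 count of Mir497b), was 0.024 with both strands counted.

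Leaving out a replicate gave 0.728 to 0.780% for the family's share, -0.98 to -0.94 for the locus ratio, -0.58 to -0.56 for Mir15b over Mir15a, -1.70 to -1.67 for Mir16-2 over Mir16-1, 30.8 to 33.2% for the members' part of seed-gene counts and 99.99 to 100% for the opposite strand of Mir497b. For Mir195a over Mir497b it gave 9.45 to 12.9. The lower value takes 3 counts in place of the 0 in replicate 2. With 2 libraries, each of these ranges only gives the values of the single libraries and is not a separate check. Members called different between the libraries were 5, 2 with TMM sizes and 2 with DESeq2 size factors, 6 with both strands counted and 5 with replicate 1 thinned, with no count filter or with a minimum of 50. Of all genes, 40.8% were called with TMM sizes, 41.0% with DESeq2 size factors, 45.2% with both strands, 40.1% after thinning, 19.8% with no filter and 56.3% with a minimum of 50, against 43.8%. Mir16-1 changed sign with TMM sizes (-0.0029, adjusted p = 0.916 by the exact binomial test; 0.00118 to 0.916 over all scalings, strands and depths tried). With both scalings Mir16-1, Mir16-2 and Mir195a lost their calls. No paired analysis was possible because the series holds a single group. The depth of replicate 2 limits the lowest values, and reads with several alignments limit the miR-16 genes.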
